A study of Petromyzon marinus with 10 samples.

Results

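SULF1, EMP2, SCRG1 and MYL6 are 4 assembled loci of the sea lamprey (Petromyzon marinus), out of 57134 in the count table. They were picked by locus number from the 23 loci of the study's list for GABA, which came from other libraries, so the baclofen counts described here took no part in that list. Those other libraries differed from the present ones in the drug (GABA), in a later sampling day by the study's account, and in the sequencer. They were also fewer, with fewer brainstems in each pool. Calls with baclofen are therefore not a like-for-like repeat of the GABA list. RNA came from the brainstem of larvae aged 5 to 7 years from the river Ulla, all of which had undergone a complete transection of the spinal cord. In 5 libraries the injured larvae had received baclofen, an agonist of the GABAB receptor, in their water, and in 5 they were untreated injured controls. Every library pooled the brainstems of several larvae, and the p-values therefore measure the spread between pools, not between animals. The series text gives day 29 after injury, whereas the study's methods give an earlier day for the baclofen larvae and their controls. The study's read statistics also name the baclofen libraries by that earlier day. No calculation below uses the day, but by the study's account all values describe that earlier day only.

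The extracellular matrix and the cell surface set which growth signals reach a neuron, and the actomyosin cytoskeleton moves its growth cone. SULF1 is an extracellular sulfatase that trims sulfate groups from heparan sulfate chains and so alters how these chains bind growth factors and morphogens. EMP2 is a membrane protein with 4 transmembrane segments, of the family that includes the peripheral myelin protein PMP22. SCRG1 is a small secreted protein that was described in mice from transcripts raised in the scrapie-infected brain. MYL6 is an essential light chain of non-muscle and smooth muscle myosin II, the motor that contracts actin bundles. These roles are known from other vertebrates, mainly mammals, and the names are those that the study paired with the loci.

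The loci differ in architecture on the Pmar_germline 1.0 assembly. SULF1 (MSTRG.25114) lies on scaffold PIZI01000040.1 from 4674583 to 4857835 on the minus strand. Its 23 separate exon blocks hold 11147 bp, of which the last block in the direction of transcription takes 7277 bp. EMP2 (MSTRG.23838) lies on PIZI01000037.1 from 8088178 to 8157482 on the minus strand, with 8460 bp of exon in 6 blocks. A block of 7994 bp holds 94.5% of the exon length of EMP2. SCRG1 (MSTRG.15134) is the most compact, with 3 blocks and 2953 bp of exon on PIZI01000021.1 from 5825990 to 5836569, minus strand. MYL6 (MSTRG.40850), on the plus strand of PIZI01000212.1 from 184232 to 206460, has the least exon sequence, 991 bp in 7 blocks, of which the longest holds 392 bp. Which of these bases are coding or untranslated is not annotated in the table.

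No other assembled locus lay within 10 kb of EMP2 or MYL6. The span of SULF1 overlaps 4 other loci, but none shares an exonic base with it, and the only overlapping locus on its own strand (MSTRG.25113) held 3 counts in all 10 libraries together. The last 390 bp of SCRG1 overlap the end of MSTRG.15133 on the opposite strand. Fragments were counted by strand, so that locus does not take fragments of SCRG1. MSTRG.15133 averaged 977.8 ± 82.1 normalised counts in the baclofen libraries and 1046 ± 41.8 in the controls (SD, n = 5 each), and its log2 fold change, −0.09 ± 0.07 (SE), did not pass the test (DESeq2 adjusted p = 0.992).

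Libraries held 12774386 to 19566056 counted fragments. Control replicate 1 stood apart from the other controls. The chi-square per degree of freedom was taken between the counts of replicates of the same group. It was 10.2 to 14.99 in the 4 pairs with control replicate 1 and 3.83 to 5.99 in the other 16. Control replicate 1 was not compared in this way with the baclofen libraries. The MYL6 fold change and the ratios between the 4 loci are given below with and without this library. The named marker loci of neurons (CPLX1, GABRA5 and CARTPT) and of glia (VIM and SLC4A4) were all detected in these brainstem libraries, and none of the marker loci was at 0. In FPKM, that is fragments per kb of exon per 1000000 counted fragments, the summed neuronal loci ranged from 116.7 to 130.0 with baclofen and from 106.1 to 118.8 in controls, and the glial loci from 191.7 to 207.8 and from 184.3 to 213.3. The 3 blood and lymphoid loci (VLRA, PTPRC and CD62L) ranged from 12.1 to 15.9 with baclofen and from 15.4 to 19.0 in controls. CPLX1 and all 3 blood loci are on the study's baclofen list and were thus picked on these same libraries. The higher neuronal sum came from CPLX1 (log2 fold change 0.17), whereas GABRA5 and CARTPT stood at −0.13 and −0.09 and did not pass (DESeq2 adjusted p = 0.989 and 0.998). Of the 3 blood loci, VLRA and CD62L were lower and PTPRC higher with baclofen. In such bulk RNA, fewer cells of a type and less RNA per cell cannot be told apart.

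Counting per length ranked MYL6 highest. Its level was 74.0 ± 9.07 FPKM (SD, n = 10 libraries), above that of 97.9% of the tested loci. EMP2 followed with 25.0 ± 1.58, then SCRG1 with 12.2 ± 0.933 and SULF1 with 10.8 ± 1.02. The ranges of MYL6 (60.1 to 88.2), EMP2 (22.8 to 27.7) and SCRG1 (10.6 to 13.3) did not overlap, with MYL6 2.95-fold above EMP2 and EMP2 2.05-fold above SCRG1 on average (10 of 10 libraries each, two-sided exact sign-flip test, adjusted over the 6 pairs p = 0.00234). SCRG1 and SULF1 (9.50 to 12.3) did overlap. Within libraries SCRG1 was the higher of the pair in 8 of 10, by 1.13-fold on average (the same exact test, p = 0.0195, adjusted p = 0.0195), with baclofen replicate 3 and control replicate 1 as the exceptions. A level per length depends on the exon length that the assembly gave each locus, which is the same in every library. The p-values of this order thus show only that it repeats over libraries.

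**Figure D1:**
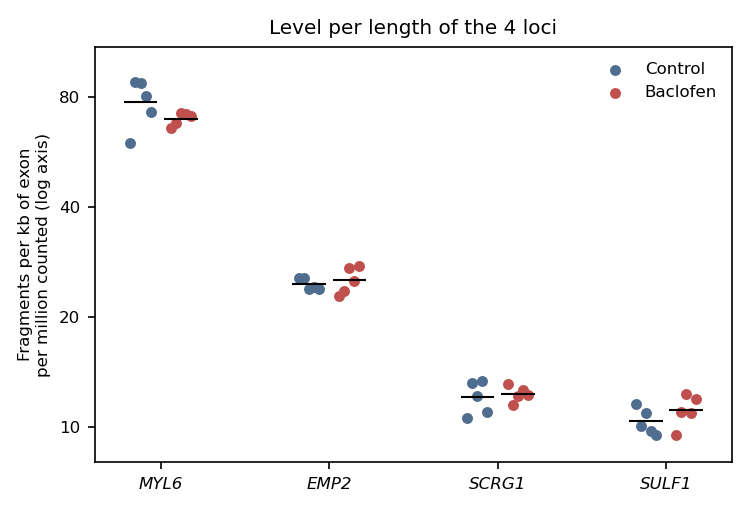
Level per length of the 4 loci in FPKM (log axis), with each point a library, control in blue and baclofen in red, and the group mean as a black line. MYL6 lies highest, from 60.1 to 88.2, and SCRG1 and SULF1 overlap.

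Baclofen was not accompanied by a called change at any of the 4 loci. All 4 entered the test. DESeq2 called 0 of them at an adjusted p below 0.05, against 82 of 23794 tested loci in all (0.345%), so that a count of 0 among 4 is what this background gives. Likewise 0 of the 4 had an unadjusted p below 0.05 (5.8% of all tested loci), and edgeR called 0 (0.0918% of all loci it tested). In all 4 loci the groups overlapped, and over all tested loci 1.25% had groups that did not. The median log2 fold change of the 4 loci was 0.01, beside −0.01 for all tested loci, whose middle 50% ran from −0.09 to 0.09.

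Counts divided by the size factor of each library (normalised counts) of SULF1 were 1688, 1923, 2264, 1920.5 and 2146 for baclofen, listed by replicate from 1 to 5, and 1987, 1886, 2020, 1779.9 and 1680.1 for the controls in the same order. Baclofen replicates 3 and 5 lay above every control, baclofen replicate 1 lay near the lowest control, and the groups overlapped. The means were 1988 ± 223 and 1870.5 ± 142 (SD, n = 5 each). The log2 fold change, 0.09 ± 0.08 (SE), did not pass (DESeq2 adjusted p = 0.998), and the 95% interval of the difference ran from −4.99% to 19.1%. The matrix sulfatase therefore showed no difference beyond the spread between pools.

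For EMP2 the same order gave 3061, 3125, 3787, 3355 and 3774 normalised counts for baclofen and 3342, 3639, 3344, 3370.3 and 3216 for the controls. The baclofen libraries enclosed the control range, with replicates 1 and 2 below every control and 3 and 5 above. The means, 3420.2 ± 346 and 3382 ± 156 (SD, n = 5 each), differed by 0.02 ± 0.07 (SE) on the log2 scale, which did not pass (DESeq2 adjusted p = 0.998). The 95% interval, from −8.19% to 11.5%, was the narrowest of the 4 loci.

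SCRG1 was the least counted locus, with 616, 531, 591, 588 and 584 normalised counts for baclofen replicates 1 to 5, compared to 480.3, 653, 596, 646 and 516 for the controls. Here the controls enclosed all 5 baclofen libraries. The means were 582 ± 30.9 and 578 ± 77.4 (SD, n = 5 each). Their log2 fold change, 0.01 ± 0.09 (SE), did not pass (DESeq2 adjusted p = 0.998), with a 95% interval from −11.2% to 14.4%.

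MYL6 stood apart from the other loci in its values, though not in its call. Its normalised counts, again by replicate number, read 1041, 1054, 1182, 1131 and 1140.2 for baclofen compared to 916, 1467, 1438, 1315 and 1146 for the controls. Control replicates 2, 3 and 4 lay above every baclofen library, control replicate 5 lay within the baclofen range, and control replicate 1 lay below all of them. The mean was 1109.6 ± 59.9 for the baclofen libraries, compared to 1257 ± 228 for the controls (SD, n = 5 each). The log2 fold change was −0.18 ± 0.11 (SE), with a 95% interval from −23.8% to 2.59%, and passed neither in DESeq2 (adjusted p = 0.957) nor in edgeR (adjusted p = 0.829). An exact permutation test over libraries gave p = 0.246 (two-sided, with 0.00794 as the smallest p that 5 against 5 libraries allow).

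**Figure D2:**
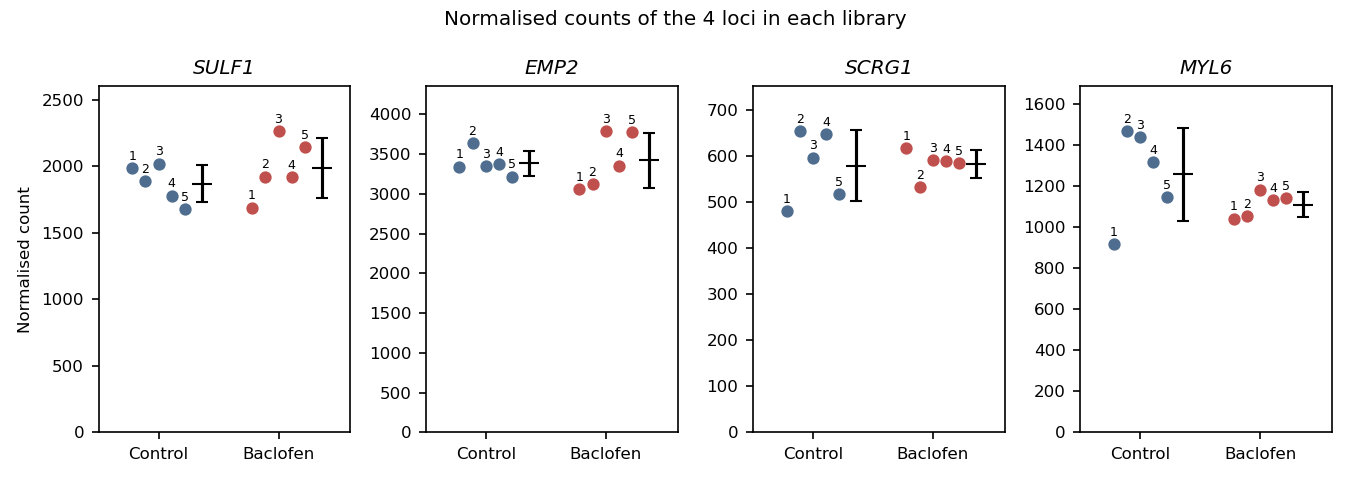
Normalised counts of each locus, with each point a library labelled by its replicate number and the mean ± SD of each group (n = 5) as a black bar beside it. The groups overlap in all 4 loci, and control replicate 1 lies lowest in SCRG1 (480.3) and MYL6 (916).

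The size of change that could have been called differed between the loci. At the SE of each locus and the largest p that was called over all loci (1.62e-04), the smallest log2 fold change past the threshold was 0.27 for EMP2, 0.31 for SULF1, 0.35 for SCRG1 and 0.41 for MYL6. In MYL6 the dispersion estimated from its replicates alone (0.0187) was 2.76 times that of the trend for loci of its mean count (0.00678). The fit behind these limits used 0.0135 for MYL6, which lies between the 2 values. The ratio of the replicate estimate to the trend was 0.913 for EMP2, 1.08 for SCRG1 and 1.38 for SULF1. Smaller estimates for these loci would not have passed in this fit. The limit moves with the SE of a fit. Without control replicate 1, MYL6 passed at −0.27 ± 0.08 (SE; DESeq2 adjusted p = 0.0216).

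The value for MYL6 turned on control replicate 1. Without that library its log2 fold change was −0.27 ± 0.08 (SE) and passed the threshold in DESeq2 (adjusted p = 0.0216). The mean of the other 4 controls was 1342 ± 146 normalised counts, and all of these controls lay above the mean of the baclofen libraries. However, the same fit called 3.33% of all tested loci, and 2.36% (302 of 12802) as lower with baclofen, against 0.0756% (18 of 23794) with all libraries. These shares are over different sets of tested loci. The edgeR test without control replicate 1 gave the same direction, −0.26, and did not pass (adjusted p = 0.148, with 0.181% of all loci called). In each of the other 9 fits that left out a library, the log2 fold change of MYL6 lay between −0.21 and −0.11 and did not pass. SULF1, EMP2 and SCRG1 passed in none of the 10.

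**Figure D3:**
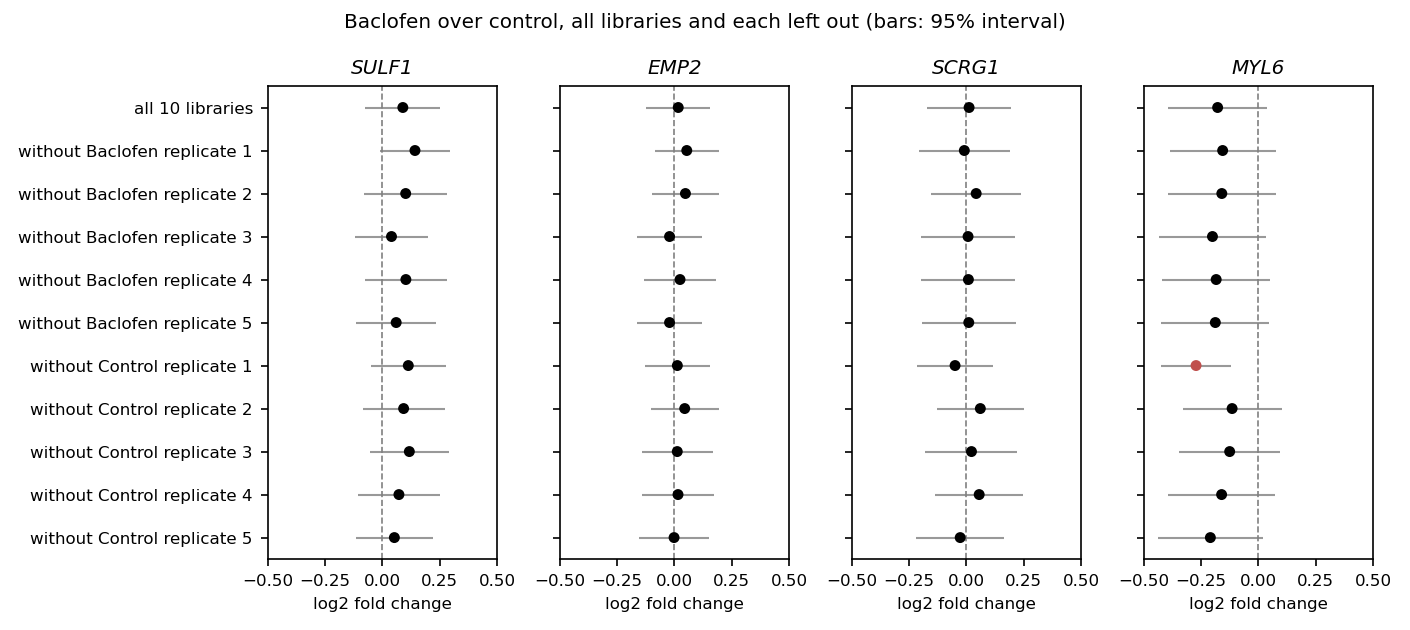
DESeq2 log2 fold change (baclofen over control) of each locus with all 10 libraries and with each library left out, with bars for the 95% interval and red for an adjusted p under 0.05. Only MYL6 without control replicate 1 passes, at −0.27.

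Locus length and abundance, which were not separated, were examined beside this result. Over loci averaging 50 or more normalised counts, control replicate 1 showed the lowest contrast between short loci (under 1.5 kb of exon) and long ones (8 kb and over), with the difference of their median log2 deviations at −0.08, against 0.01 to 0.07 in the other controls and −0.06 to 0.07 with baclofen. The median deviation in that library was −0.07 for loci under 1.5 kb, −0.10 from 1.5 to 4 kb, −0.04 from 4 to 8 kb and 0.01 above, and the lowest was thus not in the shortest class. Between the groups the mean contrast was −0.0071 with baclofen and 0.018 in controls (two-sided exact permutation p = 0.476). MYL6 is the short locus of the 4. When the trend of every library with exon length and abundance was removed, its log2 fold change was −0.10 ± 0.07 (SE; DESeq2 adjusted p = 0.864) with all libraries and −0.14 ± 0.07 (adjusted p = 0.319) without control replicate 1, in a fit that called 1.7% of all tested loci. In that library MYL6 lay 0.35 below its mean over the libraries on the log2 scale, and 7.97% of loci lay as low or lower. Control replicate 1 also had the lowest summed level of the blood loci among controls (15.4) and the highest of the neuronal loci (118.8). In normalised counts only CPLX1 of the neuronal loci lay above its control mean there (13930 against 13694), and GABRA5 (1266 against 1310) and CARTPT (2162 against 2290) lay below. Of the blood loci, VLRA (600 against 696) and PTPRC (182 against 217) lay below their control means there. CD62L stood at its control mean (98.4 against 98.3). The part of length alone, of abundance alone and of these markers in the MYL6 values was not tested.

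Ratios of 2 loci within a library do not depend on the size factor. Over all libraries, none of the 6 ratios between the loci passed a test of the groups (two-sided exact permutation tests, adjusted over the 6 pairs, p = 0.321 to 0.968). The log2 ratio of SULF1 to MYL6 averaged 0.84 ± 0.10 in the baclofen libraries, compared to 0.59 ± 0.30 in the controls (SD, n = 5 each; exact permutation p = 0.119, adjusted p = 0.321). For EMP2 to MYL6 it was 1.62 ± 0.08 and 1.45 ± 0.25 (exact permutation p = 0.175, adjusted p = 0.321). For SCRG1 to MYL6 it was −0.93 ± 0.10 and −1.11 ± 0.13 (exact permutation p = 0.0556, adjusted p = 0.321). In these 3 ratios all 5 baclofen libraries lay above the mean of the controls.

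Without control replicate 1, the 3 ratios to MYL6 no longer overlapped between the groups. SULF1 to MYL6 ran from 0.70 to 0.94 with baclofen and from 0.36 to 0.55 in the other 4 controls, a difference of 0.38. The differences were 0.28 for EMP2 to MYL6 and 0.22 for SCRG1 to MYL6. Over 16402 loci the log2 ratio to MYL6 did not overlap between the groups for 18.8% without control replicate 1, against 1.21% with all libraries. Each of the 3 had an exact permutation p of 0.00794, the smallest that 126 arrangements allow, and an adjusted p of 0.0159. The 3 ratios share MYL6 and are not separate evidence, and these p-values take no account of the choice of the library left out. The ratios among SULF1, EMP2 and SCRG1 overlapped and did not pass without it (exact permutation, adjusted p = 0.190 to 0.556).

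**Figure D4:**
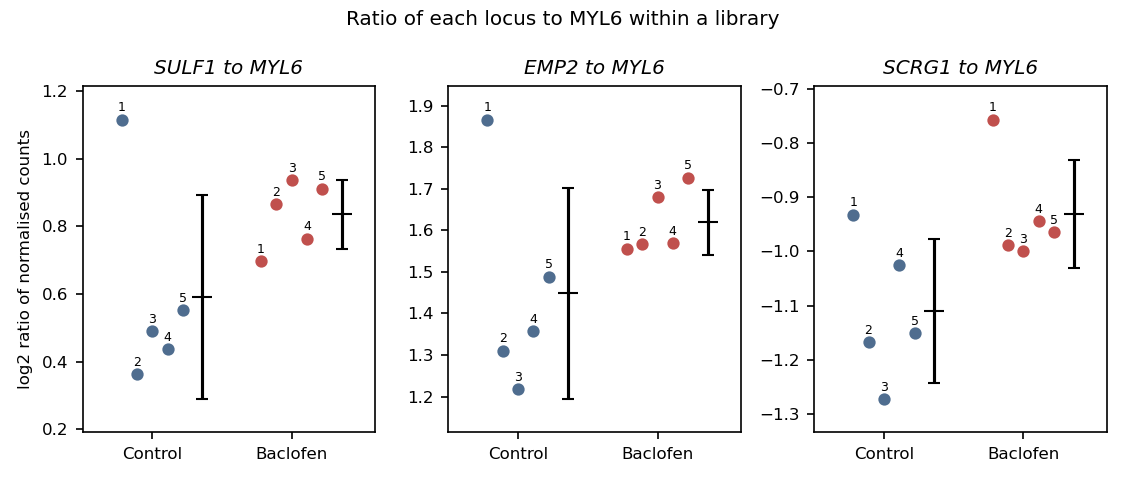
Log2 ratio of the normalised counts of SULF1, EMP2 and SCRG1 to MYL6 in each library (points with replicate numbers) with the mean ± SD of each group (n = 5). Apart from control replicate 1, every control lies below every baclofen library in all 3 ratios.

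The loci varied together only in part, and no relation held in every setting. Over the 10 libraries, log2 normalised counts of SULF1 and EMP2 had a Pearson r of 0.75 (permutation p = 0.0130, adjusted over 6 pairs p = 0.0493) and a Spearman rho of 0.56 (permutation p = 0.0978, adjusted p = 0.196). Without the 2 libraries farthest from the median of SULF1 (baclofen replicate 3 and control replicate 5) r was 0.63 and did not pass with n = 8 (permutation p = 0.0883). SCRG1 and MYL6 had an r of 0.73 (permutation p = 0.0164, adjusted p = 0.0493) and a rho of 0.64 (permutation p = 0.0551, adjusted p = 0.196). Without control replicates 1 and 5 this r was 0.62 and did not pass with n = 8 (permutation p = 0.105). Neither correlation passed after adjustment when counts were scaled by library totals. For SULF1 and EMP2, r and the unadjusted p hardly moved (r = 0.745, permutation p = 0.0153, adjusted p = 0.0917). For SCRG1 and MYL6 r was 0.57 (permutation p = 0.0883, adjusted p = 0.265). The other 4 pairs had r between −0.05 and 0.37 and did not pass (permutation, adjusted p = 0.585 to 0.906). Within the groups (n = 5 each, not tested), r was 0.93 with baclofen and 0.33 in controls for SULF1 and EMP2. In the same order it was 0.19 and 0.90 for SCRG1 and MYL6, and 0.88 and −0.0016 for SULF1 and MYL6. For EMP2 and MYL6 it was 0.93 and 0.51. For SULF1 and SCRG1 it was −0.18 and −0.034, and for EMP2 and SCRG1 0.16 and 0.65.

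**Figure D5:**
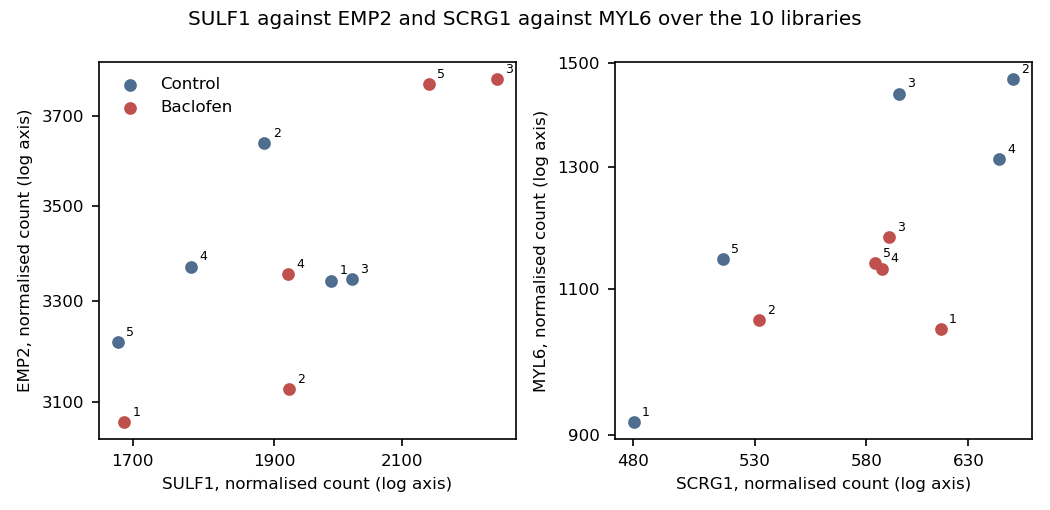
Normalised counts (log axes) of EMP2 against SULF1 (Pearson r = 0.75) and of MYL6 against SCRG1 (r = 0.73) in the 10 libraries, with control in blue, baclofen in red and replicate numbers beside the points. Control replicate 1 lies at the lower left for SCRG1 and MYL6.

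Likeness to other named loci was measured as the Pearson r of deviations from the group means over the 10 libraries, among 16374 other loci averaging 50 or more normalised counts, of which 62 carried a name in the study's lists. These values describe shared variation between libraries, which includes composition and depth. EMP2 was most like KLF10, a Krüppel-like transcription factor (r = 0.95), and 4 of all loci had a higher r. The next was the HESB locus of the GABA list (MSTRG.35974), a transcription factor of the HES family (r = 0.89, 55 loci higher). SULF1 was most like EMP2 (r = 0.77, 117 loci higher), followed by DNAJB4, a co-chaperone of the heat shock response (r = 0.73, 238 higher). The Toll-like receptor locus TLR2 led for both SCRG1 (r = 0.89) and MYL6 (r = 0.88). It was followed by the matrix and lubricating proteoglycan PRG4 for SCRG1 (r = 0.85, 132 loci higher), and by the phosphatase DUSP1, which inactivates MAP kinases, for MYL6 (r = 0.87, 489 loci or 2.99% higher). MYL6 had many close partners, with 352 loci above its r to TLR2 against 40 for SCRG1. Control replicate 1 was the lowest library for SCRG1 (480.3 normalised counts) and for MYL6 (916). Likeness was not computed without that library.

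Only matrix loci named in the study's lists could be set beside SULF1. Of 6 named loci for matrix, matrix-associated or secreted proteins (SPON2, FBN1, COL6A6, a fibrillar collagen, PRG4 and PAPPA), 5 rose and 1 fell with baclofen past the DESeq2 threshold. These loci are on the study's baclofen list, were chosen on these libraries, and so had to pass. Their contrast with SULF1, which was not called, was thus set by that choice. Over all tested loci 0.269% rose. On the log2 scale PRG4 rose by 0.52 ± 0.08 (SE, DESeq2 adjusted p = 8.37e-07), and SPON2, a secreted matrix protein, stood at −0.26 ± 0.07 (adjusted p = 0.0456), beside 0.09 ± 0.08 for SULF1. The differences from SULF1 were not tested.

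The other 19 loci of the GABA list included 17 that were tested. Of these, 1 passed the threshold (0.345% of all tested loci did), and 2 had an unadjusted p below 0.05 (5.8% of all). A positive log2 fold change was found in 6 and a negative one in 11, with a median of −0.05. The called locus was ARL3, a small GTPase of ciliary transport (log2 fold change −0.27 ± 0.07, SE; DESeq2 adjusted p = 0.0397; edgeR adjusted p = 0.192), and it failed to pass in 8 of the 10 leave-one-out fits. VIM, an intermediate filament protein of glia and the other cytoskeletal name on the list, had a log2 fold change of 0.02 ± 0.05 (DESeq2 adjusted p = 0.998), beside −0.18 ± 0.11 for MYL6.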

How the data were processed

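The authors trimmed reads with Fastp, aligned them with STAR to Pmar_germline 1.0, assembled loci with StringTie and counted fragments with featureCounts by strand, both ends mapped. Versions of these steps are not given in the sources used here. The deposited values are raw counts per locus, not normalised. Lines of 2 loci with broken exon lists were rejoined. Locus names come from the study's lists, whose columns of fold changes and p-values were not used. The RefSeq table at hand describes another assembly and named none of the loci by position.

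DESeq2 version 1.42.0 in R version 4.3.3 was fitted on all loci with treatment as the only term, the Wald test, Benjamini-Hochberg adjustment and a threshold of 0.05. Tested loci are the 23794 with an adjusted p-value (mean normalised count of at least 14.3). Log2 fold changes are not shrunken. Levels per length used the exon length in the table. The alternatives were edgeR version 4.0.16, other scalings and filters, a replicate block, removal of each library's length and abundance trend, and each library left out. The fits without control replicate 1 by edgeR or with the trend removed, and the test of level order, were chosen after seeing the data. The fits were tested on simulated data. Replicates differed by more than sampling noise (chi-square per degree of freedom at least 3.83). The loci and lists were chosen with earlier results of these data known. The named genes were the 4 loci, assembled loci within 10 kb, the 2 most alike named loci for each, and fixed lists of matrix loci and cell markers.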

Additional observations from a re-analysis of the deposited data

Results flagged for a closer look

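Of 20 groups of 5 values examined (normalised counts of the 4 loci and their 6 ratios, in each treatment group), 2 held a library far from the rest, and chance alone gives about 1 in 20. The ratios reuse the counts of the 4 loci, and both flagged ratios hold MYL6. The groups are thus not independent, and this rate is only a rough guide. The limit was a gap to the closest library of 0.71 of the whole range. For the log2 ratio of SULF1 to MYL6, control replicate 1 stood at 1.12 while the remaining controls held 0.36 to 0.55, and the gap took 0.749 of the range. For the log2 ratio of SCRG1 to MYL6, baclofen replicate 1 stood at −0.76 while the remaining baclofen libraries held −1.0 to −0.94, and the gap took 0.772 of the range.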

How the results depend on the processing

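Calls over all loci depended on the processing. In place of 82, edgeR called 25 with its count filter and 30 without it, and leaving out a library in DESeq2 gave 49 (baclofen replicate 5) to 426 (control replicate 1). Without control replicate 1, an added edgeR fit called 50 and a DESeq2 fit with the trend removed 235, of which 62.6% were higher, against 78.0% of the 82 and 29.1% of the 426. Removing the trend with all libraries gave 72.9% higher, and edgeR 92.0%.

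None of the 4 loci passed the threshold in the 9 alternatives that kept all libraries. There SULF1 ranged from 0.08 to 0.11, EMP2 from 0.01 to 0.03, SCRG1 from 0.01 to 0.04 and MYL6 from −0.18 to −0.10 (log2 fold change). In fits without 1 library SULF1 ranged from 0.04 to 0.14, EMP2 from −0.021 to 0.054 and SCRG1 from −0.0495 to 0.0605, so the sign of EMP2 and SCRG1 was not stable. MYL6 ranged from −0.27 to −0.11 (adjusted p = 0.0216 to 0.9999). With edgeR and without control replicate 1, SCRG1 was at −0.042.

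In fits without 1 library the group differences of the log2 ratios ranged from 0.05 to 0.11 for SULF1 to EMP2, 0.01 to 0.15 for SULF1 to SCRG1, 0.19 to 0.38 for SULF1 to MYL6, −0.0505 to 0.0534 for EMP2 to SCRG1, 0.11 to 0.28 for EMP2 to MYL6 and 0.14 to 0.22 for SCRG1 to MYL6. With scaling by total counts in place of size factors, r was 0.745 for SULF1 and EMP2 (permutation p = 0.0153, adjusted p = 0.0917). For SCRG1 and MYL6 r was then 0.57 (permutation p = 0.0883, adjusted p = 0.265). The r turned negative for SULF1 and MYL6 (−0.26), EMP2 and SCRG1 (−0.0733) and EMP2 and MYL6 (−0.0197). The cause was not tested. Levels per length with TMM-scaled totals moved by less than their SD.

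The labels do not say whether the replicate numbers pair the libraries. Deviations of same-numbered libraries had correlations of −0.067 to −0.0036, and 0 of 5 baclofen libraries correlated best with the control of its number. With so few libraries these values cannot decide whether a pairing existed. With the replicate block DESeq2 called 45 loci and none of the 4, with log2 fold changes of 0.08 for SULF1, 0.01 for EMP2, 0.02 for SCRG1 and −0.16 for MYL6. In the main fit, with 5 pools in each group, estimates smaller than those given for each locus could not pass the threshold.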
